A study of Capra hircus with 20 samples.

Results

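The cell cycle and proliferation genes described here are 40 genes whose products copy DNA, drive entry into mitosis, separate the chromosomes or divide the cell, measured among the 21071 genes of the deposited goat hypothalamus data. They were chosen by their known roles around UBE2C, and UBE2C itself was selected on its measured fall between D1 and M4, so the difference between these groups is given below only as a description. All 40 symbols matched a gene ID of the ARS1.2 annotation, and all 40 were among the 16771 genes tested, which reached 0.1 FPKM in 5 or more libraries. For 3 of them, MKI67, CCNB2 and AURKB, fewer than 5 libraries outside D1 reached it, so they passed only with the D1 libraries, and their differences from D1 cannot be read against the shares of all genes. The animals were healthy female Jining grey goats, an early-maturing breed, reared together and untreated, aged 1 day (D1), 60 days (M2), 120 days (M4) and 180 days (M6). Each stage had 5 goats, and each goat gave 1 strand-specific library of hypothalamic RNA depleted of rRNA. The whole tissue was sequenced, so fewer dividing cells and less RNA per dividing cell cannot be told apart.

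A cell that prepares to divide first duplicates its DNA and then condenses, attaches and pulls apart the copies, and most of the genes for these steps are transcribed only while the cell is cycling. Cyclins switch on the kinases that start each step, and the anaphase-promoting complex, a ubiquitin ligase, ends mitosis by marking cyclins and other proteins for destruction. In the hypothalamus most neurons are formed before birth, while glial progenitors, endothelial cells, microglia and the tanycytes and other progenitors along the third ventricle keep some capacity to divide afterwards.

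Most of the 40 transcripts were scarce in this tissue. FPKM is a fragment count divided by gene length and library size, so levels can be compared between genes, and 21 of the 40 genes averaged under 1 FPKM over the 20 libraries. PCNA, HMGB2, MCM6 and CCNA2 together held between 49.4% and 68.7% of the summed FPKM of the 40 genes in a library, with a median of 57.0%. At the other end AURKB averaged 0.0400 FPKM and was listed at 0 in 10 libraries. Of the 200 values per stage, D1 had 1 that was listed at 0, M2 had 19, M4 had 18 and M6 had 16. UBE2C, CCNB2 and AURKB were at 0 in 8, 9 and 10 libraries. Zeros were also fewer at D1 over all genes. The genes above 0 in a library were 17289 to 17593 at D1 and 16321 to 16877 at M2. At M4 they were 16147 to 16986 and at M6 15754 to 17407. The values used here hold no read counts, so no detection limit was calculated for a 0, and the spread among the 5 goats carries the precision.

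Some libraries stood apart. In M2-3 and M6-3 (the number after the stage is the goat) KLHDC1 took 23.9% and 9.83% of all FPKM and was the leading gene, as in no other library. M2-1 had the lowest median correlation with the other libraries across genes, 0.841 against up to 0.930. Within D1, D1-5 was the lowest library for 23 of the 40 genes and D1-2 for 14, while D1-3 was the highest for 20 and D1-4 for 15. Of 19 hypothalamic marker genes, the summed level ran from 2.26 to 925 FPKM among libraries, with OXT and HCRT each listed at 0 in 6 libraries, RAX at 0 in 15 and GHRH at 0 in 19. The part of these differences in the results was not tested, and the values without the libraries concerned stand beside the results that turn on them.

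The 40 genes were highest at D1 more often than at any other stage. By mean FPKM, D1 was the highest stage for 27 of the 40, M2 for 4, M4 for 3 and M6 for 6, and by median D1 was the highest for 30. The lowest mean was at M4 for 20 genes, at M6 for 8, at M2 for 7 and at D1 for 5. These ranks were not counted over all genes, so no share stands beside them. They include UBE2C, chosen on its fall from D1, and MKI67, CCNB2 and AURKB, which passed the filter only with the D1 libraries. The summed FPKM of the 40 genes overlapped between all stages, with D1 goats between 92.2 and 163, M2 goats between 73.9 and 106, M4 goats between 81.3 and 97.7 and M6 goats between 80.9 and 144.

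**Figure D1:**
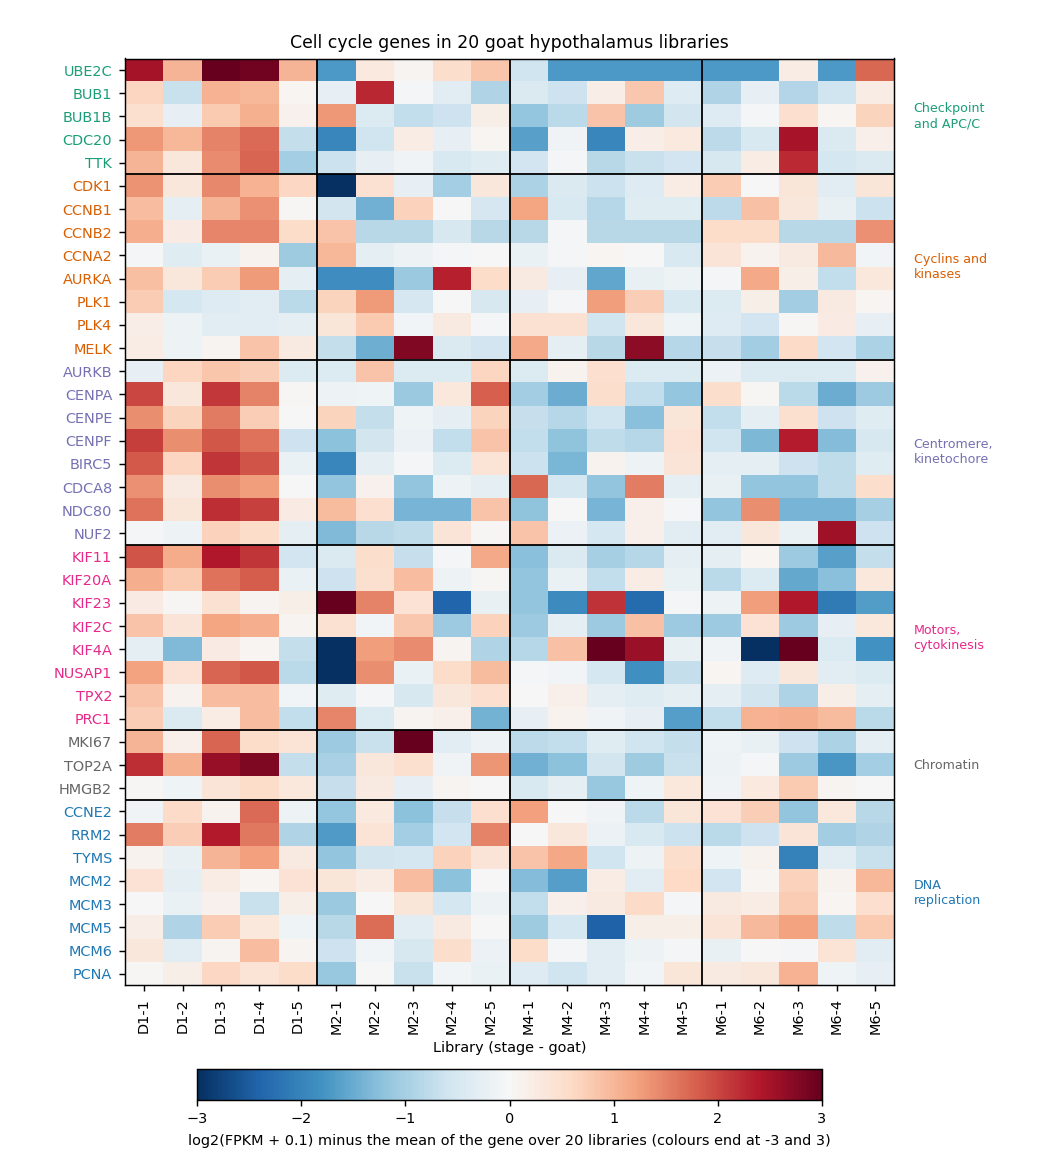
Levels of the 40 cell cycle genes (rows, grouped by role) in the 20 libraries (columns, 5 goats per stage), as log2(FPKM + 0.1) minus the mean of the gene over the 20 libraries, with colours ending at -3 and 3. D1-1, D1-3 and D1-4 are red for most checkpoint, centromere and motor genes, D1-5 is pale or blue for many of them, and M6-3 holds isolated red cells such as CDC20 and TTK.

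UBE2C (gene ID 102180057, chromosome 13, 74094992 to 74098467, ARS1.2) encodes the ubiquitin-conjugating enzyme that works with the anaphase-promoting complex. It was at 1.76, 0.564, 3.01, 2.33 and 0.562 FPKM in the 5 D1 libraries and at 0, 0.302, 0.247, 0.374 and 0.487 FPKM in the M2 libraries. At M4 it was listed at 0.119 FPKM in 1 goat and at 0 in the other 4, and at M6 at 0, 0, 0.284, 0 and 0.993 FPKM. Every D1 value lay above every M2 and every M4 value, while the highest M6 goat lay above the lowest D1 goats. On the log2(FPKM + 0.1) scale, which understates the change of low genes, UBE2C had differences of -2.13 (M2), -3.62 (M4) and -2.77 (M6) from D1, each with a standard error (SE) of 0.67. UBE2C was the 1 member called in M4 vs. D1 (adjusted p under 0.05 and a log2 fold change of at least 1 in size, in limma), where 0.0537% of all genes were called. Nothing is read from this count, because that difference chose the gene. Between M2 and M6, whose libraries took no part in the choice, UBE2C differed by -0.64 on the same scale, with an exact two-sided permutation p of 0.429. The smallest p that 5 against 5 libraries allow is 0.00794.

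The other 4 checkpoint genes each had their highest single value outside D1. BUB1B, a kinase of the spindle checkpoint and the most abundant of this role (chromosome 10, 67227442 to 67278139), was at 1.91, 1.10, 2.39, 2.90 and 1.47 FPKM at D1 and at 3.44, 0.986, 0.758, 0.837 and 1.52 at M2. It was at 0.543, 0.713, 2.49, 0.580 and 0.873 FPKM at M4 and at 0.992, 1.29, 1.95, 1.39 and 2.18 at M6. All stages overlapped, and the highest goat of all was at M2. CDC20, the activator of the anaphase-promoting complex (chromosome 3, 18104911 to 18108909), was at 0.864, 0.685, 0.999, 1.16 and 0.140 FPKM at D1 and at 0, 0.159, 0.354, 0.231 and 0.304 at M2. It was at 0.0265, 0.260, 0, 0.349 and 0.379 FPKM at M4 and at 0.127, 0.184, 2.07, 0.189 and 0.333 at M6. Except for D1-5, the D1 goats lay above every M2 and M4 goat, but M6-3 held the highest value of all 20. M6-3 was also the highest library for TTK, another checkpoint kinase, at 1.51 FPKM against 0.566 ± 0.382 (SD, n = 5) at D1. BUB1, which recruits checkpoint proteins to the kinetochore, averaged 0.683 ± 0.333 FPKM at D1, 0.440 ± 0.242 at M4 and 0.302 ± 0.144 at M6, with 1 goat at M2 at 2.48.

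Of the cyclins and kinases of mitotic entry, CDK1 and the B cyclins had their highest mean at D1 and CCNA2 at M6, and none was called. CDK1, the kinase that drives mitosis (chromosome 28, 29028552 to 29042931), was at 3.10, 1.49, 3.29, 2.48 and 1.81 FPKM at D1 and at 0.0316, 1.63, 0.957, 0.514 and 1.48 at M2. It was at 0.545, 0.823, 0.698, 0.861 and 1.36 FPKM at M4 and at 2.01, 1.14, 1.52, 0.902 and 1.52 at M6. No M4 value reached the lowest D1 value, whereas M2 and M6 overlapped with D1. CCNA2, the cyclin of S phase and early mitosis and the most abundant of this role (chromosome 6, 3763046 to 3768956), was at 5.49, 4.32, 4.86, 5.99 and 2.60 FPKM at D1 and at 11.2, 4.64, 5.01, 5.43 and 5.58 at M2. It was at 4.88, 5.44, 5.79, 5.61 and 4.08 FPKM at M4 and at 7.41, 6.05, 6.76, 11.2 and 5.30 at M6. CCNA2 was the 1 gene of the 40 with an unadjusted p under 0.05 in the higher direction in M6 vs. D1 (0.65, SE 0.27), against 3.33% of all genes, and its adjusted p in limma was 0.630. CCNB1, a partner of CDK1, averaged 2.83 ± 1.3 FPKM at D1 and 1.44 ± 0.825 at M2, with 1.69 ± 1.25 at M4 and 1.71 ± 0.916 at M6. The other B cyclin, CCNB2, was between 0.113 and 0.399 FPKM at D1 and was listed at 0 in 3 M2, 4 M4 and 2 M6 goats. PLK1, a kinase needed throughout mitosis, had its highest mean at M4, 2.07 ± 1.15 FPKM against 1.38 ± 0.747 at D1, and PLK4, the kinase of centriole duplication, had its highest at M2, 5.95 ± 1.56 against 4.33 ± 0.750. AURKA, a centrosome kinase, ranged from 0 to 1.71 FPKM over the libraries, and MELK from 0 to 1.78, both with their highest value at M2. AURKA had a D1 mean of 0.487 ± 0.223 FPKM and MELK one of 0.238 ± 0.0968.

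The genes of the centromere, the kinetochore and the chromosomal passenger complex, which attach chromosomes to the spindle and correct wrong attachments, had lower medians after D1 than the cyclin and replication genes. Their median log2 difference from D1 was -1.22 at M2, -1.54 at M4 and -1.48 at M6. BIRC5 (survivin, of the passenger complex) ranged from 0.237 to 1.61 FPKM at D1 and from 0.129 to 0.225 at M6, and these groups did not overlap. NDC80, which binds microtubules at the kinetochore, was between 0.211 and 1.11 FPKM at D1 and between 0 and 0.189 at M4. CENPA, the histone H3 variant of centromeres, ranged from 0.190 to 1.13 FPKM at D1 and from 0 to 0.309 at both M4 and M6. CENPE, a kinetochore motor, averaged 0.653 ± 0.308 FPKM at D1 and 0.171 ± 0.130 at M4, and CENPF 1.03 ± 0.540 and 0.178 ± 0.143. At M6 the value of CENPF in M6-3, 1.93 FPKM, was above every D1 goat. NUF2, the partner of NDC80 and the most abundant gene of this role (chromosome 3, 114164428 to 114206700), was at 1.87, 1.73, 3.18, 2.91 and 1.59 FPKM at D1 and at 0.719, 1.05, 1.11, 2.58 and 1.99 at M2. It was at 3.58, 1.72, 1.32, 2.17 and 1.55 FPKM at M4 and at 1.51, 2.49, 1.67, 11.7 and 1.22 at M6. NUF2 thus overlapped between all stages, and M6-4 alone lay far above the others. AURKB, the kinase of the passenger complex, never exceeded 0.137 FPKM. CDCA8 (borealin, of the same complex) ranged from 0.126 to 0.499 FPKM at D1, and 2 M4 goats, at 0.654 and 0.562, lay above all of them.

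Among the spindle motors and the genes of cytokinesis, KIF11 and KIF20A were high in the same D1 goats. KIF11, the motor that pushes the spindle poles apart (chromosome 26, 37324360 to 37366168), was at 1.48, 0.824, 2.17, 1.78 and 0.186 FPKM at D1 and at 0.216, 0.519, 0.167, 0.313 and 0.844 at M2. It was at 0.0801, 0.220, 0.116, 0.138 and 0.249 FPKM at M4 and at 0.257, 0.348, 0.10, 0.0394 and 0.159 at M6. The D1 goats other than D1-5 lay above every M4 and M6 goat. KIF20A, a motor of the cleavage furrow (chromosome 7, 60877443 to 60886002), was at 0.521, 0.397, 0.802, 0.929 and 0.152 FPKM at D1 and at 0.0892, 0.305, 0.452, 0.161 and 0.198 at M2. It was at 0.0287, 0.152, 0.0744, 0.240 and 0.151 FPKM at M4 and at 0.0652, 0.12, 0, 0.0218 and 0.263 at M6. As for KIF11, only D1-5 kept the D1 goats from lying above all M4 and M6 goats. KIF4A, a chromosome-bound motor and by mean the most abundant gene of this role (chromosome X, 11177125 to 11304219), was at 0.934, 0.406, 1.42, 1.23 and 0.673 FPKM at D1 and at 0.0479, 2.92, 3.30, 1.25 and 0.584 at M2. It was at 0.609, 2.25, 10.3, 7.56 and 0.995 FPKM at M4 and at 1.09, 0.0535, 12.3, 0.861 and 0.264 at M6. KIF4A was the 1 gene with a log2 difference of 1 or more from D1, 1.49 at M4 (SE 1.01), with M4 goats from 0.609 to 10.3 FPKM overlapping D1. Its M2 and M6 values spread on both sides of the D1 range. By median over the 20 libraries TPX2 lay above KIF4A, at 2.11 FPKM against 1.04. The annotation places 2 pseudogenes inside KIF4A and a lncRNA across part of KIF23, so reads of these neighbours may be shared. KIF23, which bundles the central spindle, ranged from 0.653 to 0.907 FPKM at D1 and from 0.0404 to 6.85 at M2. TPX2, which activates AURKA on the spindle, averaged 3.45 ± 1.10 FPKM at D1 and 2.30 ± 0.728 at M2, with 2.00 ± 0.341 at M4 and 1.76 ± 0.518 at M6. NUSAP1, a microtubule-bundling protein, averaged 1.95 ± 1.19 FPKM at D1 and 0.540 ± 0.259 at M4. KIF2C, which trims microtubules at the centromere, ranged from 0.127 to 0.387 FPKM at D1 and from 0 to 0.295 at M4. PRC1, a bundler of the central spindle, averaged 1.25 FPKM at both D1 and M2 (SD 0.631 and 1.01), 0.794 ± 0.320 at M4 and 1.53 ± 0.896 at M6.

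Of the chromatin genes, TOP2A and MKI67 had lower means at M4 and M6 than at D1, and HMGB2 overlapped between all stages. TOP2A, the topoisomerase that untangles replicated DNA (chromosome 19, 40273646 to 40299660), was at 5.85, 2.60, 7.70, 8.86 and 0.685 FPKM at D1 and at 0.550, 1.53, 1.69, 1.10 and 3.12 at M2. It was at 0.370, 0.445, 0.772, 0.512 and 0.711 FPKM at M4 and at 1.05, 1.15, 0.505, 0.285 and 0.531 at M6. The D1 goats other than D1-5 were all above every M4 and M6 goat, and D1-5 lay within the M4 range. HMGB2, a DNA-bending protein abundant in dividing cells (chromosome 8, 5681461 to 5683931), was at 19.9, 17.8, 25.4, 28.4 and 23.9 FPKM at D1 and at 11.9, 23.4, 16.4, 20.4 and 19.5 at M2. It was at 14.1, 16.1, 8.69, 17.6 and 24.1 FPKM at M4 and at 18.0, 23.8, 33.4, 20.3 and 19.3 at M6. Its lowest goat was at M4 and its highest at M6. MKI67, which encodes the Ki-67 protein used to stain cycling cells, was between 0.137 and 0.616 FPKM at D1, between 0.0246 and 0.0669 at M4 and between 0.0101 and 0.0935 at M6, and neither later group overlapped with D1. At M2 it was at most 0.0905 FPKM in 4 goats and at 2.78 FPKM in M2-3, which alone held 56.2% of the MKI67 signal of the 20 libraries.

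The replication genes had median log2 differences from D1 of -0.55 (M2), -0.43 (M4) and -0.18 (M6), and RRM2 had the lowest difference among them in each. PCNA, the clamp that holds DNA polymerase on its template and by mean the most abundant of the 40 genes (chromosome 13, 46864800 to 46870372), was at 20.2, 22.2, 30.0, 26.1 and 28.6 FPKM at D1 and at 8.92, 19.9, 12.4, 18.5 and 17.0 at M2. It was at 15.1, 12.9, 15.6, 18.6 and 25.3 FPKM at M4 and at 23.5, 25.0, 40.5, 18.1 and 16.5 at M6. The M2 goats were all below the D1 goats, and the M6 goats spanned the D1 range. MCM6, of the helicase that opens DNA for replication, averaged 15.6 ± 5.32 FPKM at D1 and 11.9 ± 4.00 at M2, with 13.1 ± 3.42 at M4 and 12.7 ± 2.65 at M6. The helicase subunits MCM2, MCM3 and MCM5 had their highest mean at M6, at 0.507 ± 0.248, 3.10 ± 0.626 and 1.18 ± 0.538 FPKM, against 0.445 ± 0.104, 2.21 ± 0.502 and 0.795 ± 0.346 at D1. RRM2, the subunit of ribonucleotide reductase made in S phase, averaged 1.39 ± 0.978 FPKM at D1 and 0.525 ± 0.566 at M2, with 0.406 ± 0.136 at M4 and 0.299 ± 0.191 at M6. TYMS, which makes thymidylate, averaged 4.64 ± 2.05 FPKM at D1, 4.37 ± 2.05 at M4 and 2.21 ± 0.999 at M6, and CCNE2, the cyclin of S phase entry, 5.92 ± 3.87, 4.73 ± 2.69 and 4.06 ± 2.10. The ends of TYMS and CCNE2 overlap the genes ENOSF1 and INTS8, by 187 and 278 bases, and both neighbours were more abundant.

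**Figure D2:**
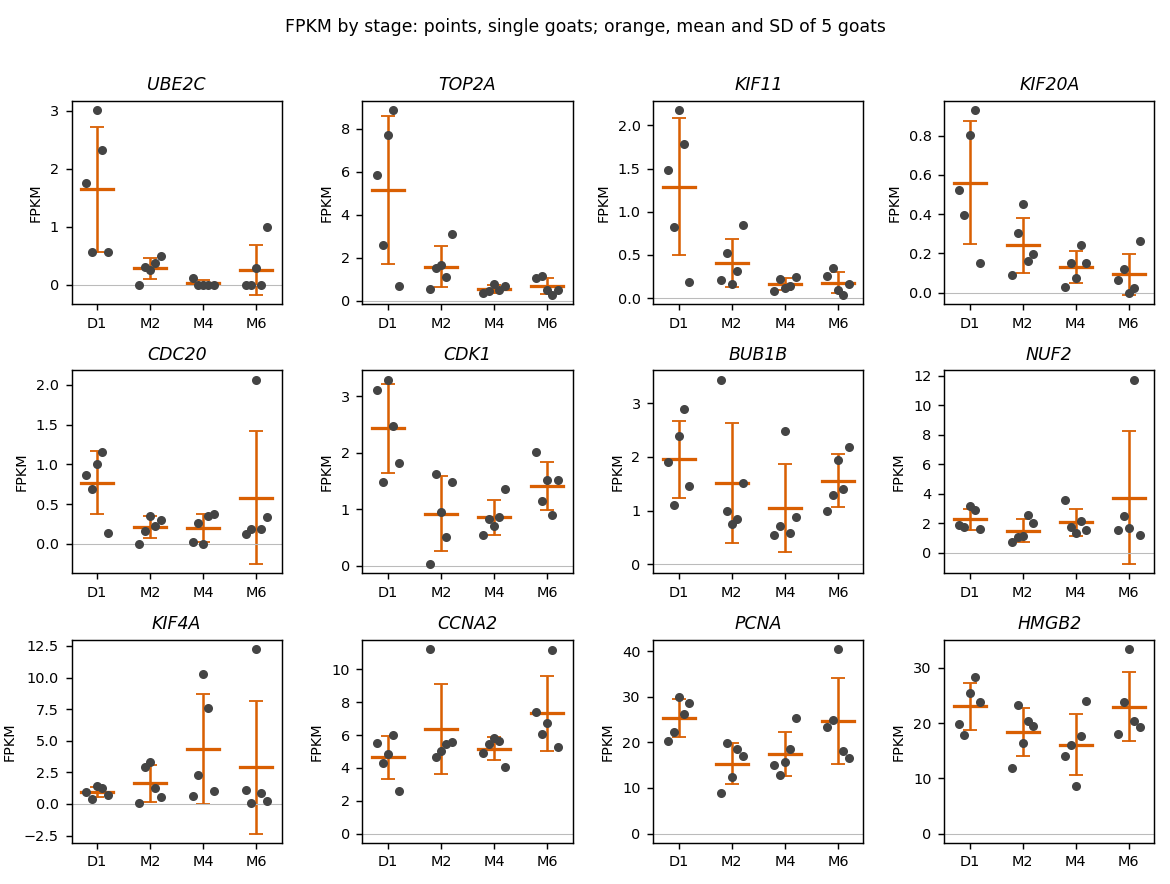
FPKM (linear axes) of the 12 cell cycle genes with values given for each goat, by stage (5 goats each); points are goats, and the orange bars are the mean and SD of the stage. D1 goats spread widely for UBE2C, TOP2A, KIF11 and KIF20A, from D1-5 near the later stages to D1-3 and D1-4 at the top, and PCNA and HMGB2 overlap between most stages.

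In M2 vs. D1, 0 of the 40 genes were called by limma and 0% of all genes were, so this fit separated no gene of the tissue between these stages. All comparisons with D1 share the D1 libraries that chose UBE2C, and the counts that follow leave UBE2C out where they rest on a p. Because the other 39 were chosen with earlier results of these data known, the counts in the comparisons with D1 are descriptions. An unadjusted p under 0.05 in the lower direction was found for 12 of the other 39 genes, against 9.35% of all genes. The lowest adjusted p of these was that of BIRC5, 0.156 in limma, with a log2 difference of -1.73 (SE 0.50). A log2 difference of -1 or less was found for 12 of the 39 genes other than UBE2C, against 2.52% of all genes, and of 1 or more for 0 genes, against 6.65%. CCNB2, which passed the filter only with the D1 libraries, is in both counts of 12. PCNA was the 1 of the 39 without overlap between the groups in the lower direction, as were 2.32% of all genes. PCNA differed by -0.77 (SE 0.26), with an adjusted p of 0.191 in limma. The median over the 40 genes was -0.74 (-0.72 without UBE2C), and over all genes -0.07. All M2 libraries had lower mapping rates than all D1 libraries, so stage and mapping rate cannot be told apart in this comparison. With the mapping rate as a covariate the median of the 40 genes was -0.85 and that of all genes 0.04, and with the replicate block added they were -0.44 and -0.02. Without M2-1 the median of the 40 genes was -0.61, and without M2-3 it was -0.74.

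In M6 vs. D1, 0 of the 40 genes were called, and the 1 gene called of all (0.00596%) was ALAS2, the haem synthesis enzyme of red cell precursors. An unadjusted p under 0.05 in the lower direction was found for 13 of the 39 genes other than UBE2C, against 4.08% of all genes. The lowest adjusted p was that of TOP2A, 0.239 in limma, with a log2 difference of -2.40 (SE 0.56), followed by KIF11 with -2.12 (SE 0.52) and an adjusted p of 0.266 and KIF20A with -1.76 (SE 0.47) and 0.331. Of the 39 genes, 14 had a log2 difference of -1 or less, against 3.4% of all genes. BIRC5 had no overlap between the groups, as had 1.48% of all genes in the lower direction. MKI67 had none either, but it passed the filter only with the D1 libraries, and it is also in the count of 14. The median over the 40 genes was -0.75 (-0.73 without UBE2C), and over all genes -0.05. Without D1-5, the lowest D1 library for 23 of the genes, TOP2A and KIF11 were called here, among 8 genes called of all (0.0479%). Leaving out that library by itself raises the D1 means of those 23 genes. The median of the 40 genes was then -0.89. Without M6-3 it was -0.80 and 0 of the 40 genes were called.

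M4 vs. D1 is the comparison that chose UBE2C, so its values are a description and the call of UBE2C in it is no evidence. The log2 difference was below 0 for 34 of the 40 genes (85%), as for 56.3% of all genes, and -1 or less for 17, as for 3.84% of all genes. It was 1 or more for KIF4A, as for 2.47% of all genes. The groups did not overlap in the lower direction for UBE2C, MKI67, CDK1, CCNB2 and NDC80, against 1.52% of all genes. After UBE2C, the lowest differences were those of TOP2A (-2.59, SE 0.56), KIF11 (-2.15, SE 0.52), CENPA (-1.98, SE 0.58) and CENPF (-1.90, SE 0.65). The median was -0.82, and over all genes -0.07. Nothing is read from these shares. By role, the median differences were -1.54 for the centromere and kinetochore genes, -1.42 for the 3 chromatin genes, -1.25 for the checkpoint genes, -1.06 for the motors, -0.43 for replication and -0.34 for the cyclins and kinases. The call of UBE2C was lost in many other settings, among them the fit of only the 10 libraries of D1 and M4, a pseudocount of 1 and quantile normalization.

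Between the later stages none of these genes was called by limma. In M6 vs. M2, which shares no library with the choice of UBE2C, 0 of the 40 genes were called and 0% of all genes. An unadjusted p under 0.05 in the lower direction was found for 0 of the 40 genes, against 2.89% of all genes, and in the higher direction for PCNA and MCM3, against 3.26%. PCNA differed by 0.67 (SE 0.26) and MCM3 by 0.66 (SE 0.30), both with an adjusted p of 0.746 in limma. The 3 highest differences were those of CDK1 (0.98, SE 0.52), NUF2 (0.84, SE 0.49) and CDC20 (0.69, SE 0.65), and the 3 lowest those of TOP2A (-1.02, SE 0.56), KIF20A (-0.87, SE 0.47) and KIF11 (-0.83, SE 0.52). NUF2 and CDC20 each had 1 goat far above the other 4 at M6, M6-4 and M6-3. The median of the 40 genes was -0.03 and changed sign when single libraries were left out, between -0.19 and 0.12.

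In M4 vs. M2 and in M6 vs. M4, both of which share the M4 libraries with the choice of UBE2C, 0 of the 40 genes and 0% of all genes were called. In M4 vs. M2, TOP2A was the 1 gene of the 39 other than UBE2C with an unadjusted p under 0.05 in the lower direction, against 4.72% of all genes. It differed by -1.21 (SE 0.56), with an adjusted p of 0.569 in limma. In M6 vs. M4, TYMS was the 1 such gene, against 2.88% of all genes, with a difference of -0.98 (SE 0.45). MCM5 (1.25, SE 0.54) and HMGB2 (0.55, SE 0.25) had an unadjusted p under 0.05 in the higher direction there, against 3.99% of all genes, each with an adjusted p of 0.700 in limma. The median of the 40 genes was -0.20 in M4 vs. M2 and 0.21 in M6 vs. M4, and over all genes -0.02 and 0.04.

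**Figure D3:**
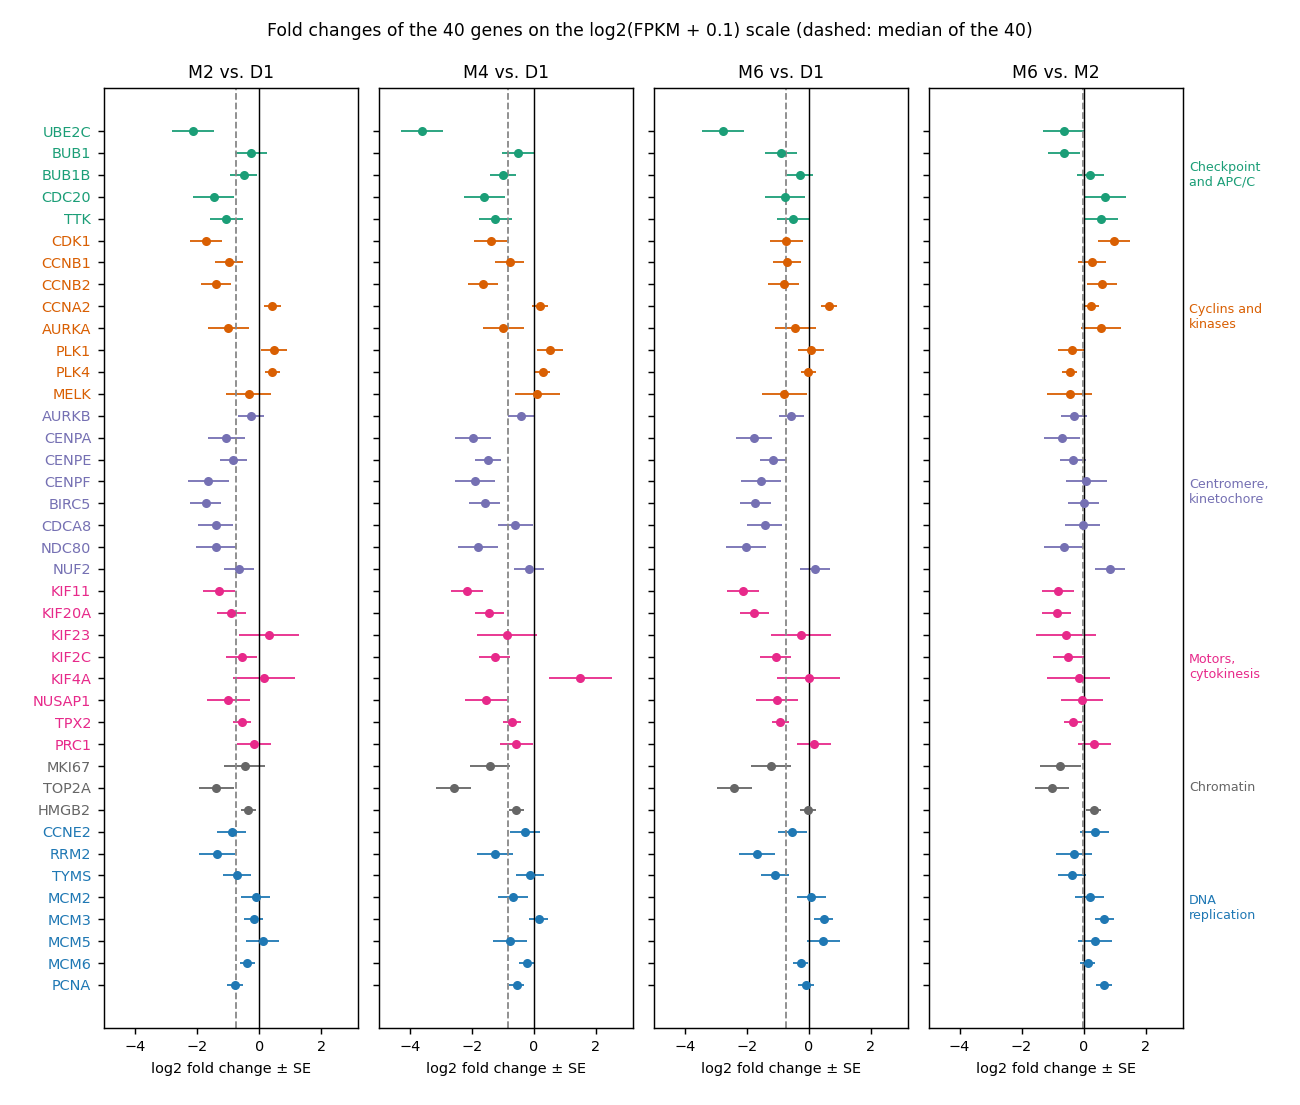
Log2 fold changes of the 40 genes on the log2(FPKM + 0.1) scale with their standard errors (horizontal bars), from the fit of all 20 libraries, for M2, M4 and M6 against D1 and for M6 against M2. The dashed lines are the medians of the 40 genes, -0.74, -0.82, -0.75 and -0.03, and the centromere, checkpoint and chromatin genes lie mostly left of 0 in the 3 panels with D1.

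Goats of the same stage differed from each other in many of these genes at once. With the stage means removed, Pearson's r over the 20 libraries between 2 of the 40 genes had a median of 0.14 over 780 pairs, ranged from -0.60 to 0.89 and was over 0.5 in 79 pairs. The libraries share their depth and their dissection, and D1 has the widest spread, so these values are descriptions. TOP2A and KIF11 were the most alike pair, with an r of 0.89, and BIRC5 followed TOP2A with 0.87. Each gene was then compared with the mean of the other 39, and r was highest for TOP2A (0.82), RRM2 (0.81), BIRC5 (0.78) and KIF11 (0.77). UBE2C had an r of 0.60. At the low end stood MCM2 (0.00), PLK4 (-0.06) and KIF23 (-0.11), and CCNA2, PLK1, CCNB2 and PRC1 were all under 0.05. HMGB2 was most alike MCM5 (0.82) and PCNA most alike HMGB2 (0.77). Counts of genes in the comparisons above are therefore not counts of independent measurements.

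**Figure D4:**
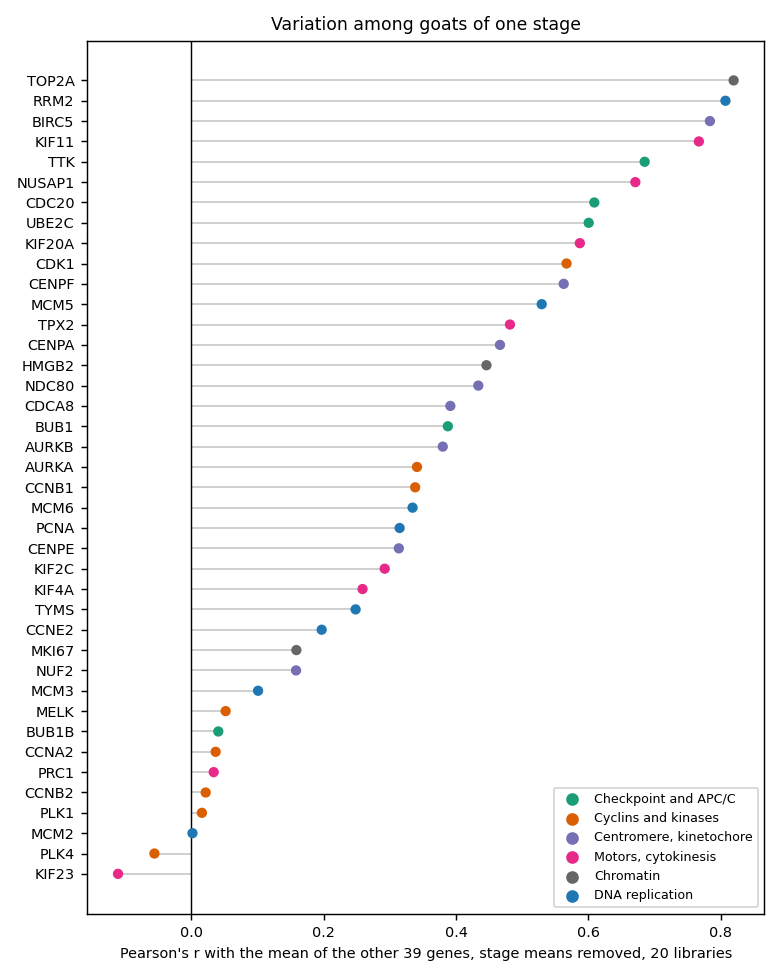
Pearson's r of each cell cycle gene with the mean of the other 39, on log2(FPKM + 0.1) with stage means removed, over 20 libraries; colours mark the roles. The values run from 0.82 for TOP2A to -0.11 for KIF23, and the upper part of the plot holds genes of every role.

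Outside the 40, the genes whose stage-centred values were most like the mean of the 40 included further cell division genes. The highest r over 20 libraries was that of DEPDC1 (0.86), a gene of mitotic progression, followed by DLGAP5 (0.83), a spindle protein, and CDCA2 (0.79), which recruits a phosphatase to mitotic chromosomes. DEPDC1 averaged 0.373 ± 0.237 FPKM at D1 and 0.0532 ± 0.0153 at M6. The other genes of the first 10 were LOC102180034 (0.79), LOC102189040 (0.78), PHC2 (0.78), CDCA3 (0.76), LOC108633413 (0.72), CDCA7 (0.72) and EI24 (0.71). The median r of all genes with the mean of the 40 was 0.00.

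The wider cell cycle was read from 5 lists of other genes, covering replication, mitosis, G1 cyclins and their kinases, transcription factors and inhibitors of the cycle. Of their 101 symbols 99 were matched and 96 tested, and 0 were called in any of the 6 comparisons. An unadjusted p under 0.05 was found in the lower direction for 11 of the 96 in M2 vs. D1, where 9.35% of all genes had one, and for 10 in M6 vs. D1 (4.08% of all genes). In the higher direction it was found for 2 (6.25% of all genes) and 3 (3.33%). The counts were 4 lower and 4 higher in M6 vs. M2, where 2.89% and 3.26% of all genes were. They were 12 and 3 in M4 vs. M2 (4.72% and 3.95% of all genes) and 1 and 8 in M6 vs. M4 (2.88% and 3.99%). The lowest difference in M2 vs. D1 was that of PTTG1, -1.93 (SE 0.41), with an adjusted p of 0.104 in limma. PTTG1 encodes securin, which blocks the separation of sister chromatids until anaphase. PTTG1 was between 0.971 and 1.65 FPKM at D1 and between 0.101 and 0.415 at M2. The highest there was that of E2F7, a repressor of S phase genes, at 2.21 (SE 0.76), with an adjusted p of 0.202. In M6 vs. D1 the lowest was CKS2, a subunit of cyclin-dependent kinases, at -2.43 (SE 0.74), and the highest ANLN, at 1.76 (SE 0.80), with adjusted p values of 0.446 and 0.643 in limma. ANLN encodes anillin of the cleavage furrow and was at 5.53 to 333 FPKM over the libraries. Its highest value was far above that of any of the 40 genes, but its lowest was below the lowest of PCNA, 8.92. The summed level of the mitotic list, which holds ANLN, was lowest in M4-1, M4-2, M6-4 and D1-4, at 67.4, 95.4, 105 and 108 FPKM. The summed mature oligodendrocyte genes were also lowest there, at 439, 931, 649 and 927 FPKM, and a link was not tested. In M4 vs. D1, DLGAP5 differed by -2.80 (SE 0.55) and E2F7 by 1.00 (SE 0.76), as a description. The 36 tested mitotic genes had median differences from D1 of -0.41 at M2 and -0.38 at M6, the 26 replication genes of -0.27 and -0.11, the 7 G1 genes of -0.30 and -0.31, the 14 transcription factors of 0.02 and 0.01 and the 13 inhibitors of -0.25 and -0.02.

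The levels of marker genes of other cells stand beside these values. The summed level of 7 matched erythroid genes was between 4.09 and 134 FPKM at D1, between 3.13 and 43.7 at M2, between 2.56 and 4.70 at M4 and between 2.20 and 13.1 at M6. ALAS2 was between 0.381 and 2.75 FPKM at D1 and at most 0.0393 at M6 (log2 difference -3.27, SE 0.48, adjusted p of 0.0213 in limma), while HBM was listed at 0 in all 20 libraries. Of the 5 erythroid genes tested, 3 were below D1 at M6, with a median of -0.39, and EPB42, a red cell membrane protein, differed by 1.33 (SE 0.59, adjusted p of 0.638 in limma). In D1-1 to D1-5 the erythroid sum was 4.09, 134, 29.1, 49.2 and 61.0 FPKM, and UBE2C was at 1.76, 0.564, 3.01, 2.33 and 0.562. The summed level of 7 neural progenitor genes was between 132 and 277 FPKM at D1 and between 64.2 and 122 at M4, without overlap, and between 79.6 and 188 at M2 and between 89.1 and 142 at M6. In D1-1 to D1-5 it was 152, 132, 146, 255 and 277 FPKM. The summed FPKM of the 40 genes in the same goats was 121, 92.2, 145, 163 and 100. The summed level of 7 mature oligodendrocyte genes ran from 927 to 14048 FPKM at D1 and from 439 to 8947 at M4, and that of 8 oligodendrocyte progenitor genes from 91.6 to 387 and from 69.9 to 286. In D1-1 to D1-5 the mature sum was 10113, 13060, 14048, 927 and 13875 FPKM, and the progenitor sum 290, 381, 387, 91.6 and 332. The sums for immature neurons, astrocytes, microglia, endothelial and ependymal cells overlapped between D1 and each later stage. Those of the pituitary genes did too, with GH1 and TSHB at 0 in 19 libraries. At M4 the 15 tested hypothalamic genes had a median log2 difference from D1 of -0.91, as a description, beside -0.82 for the 40 genes. The median was -1.70 for erythroid, -1.33 for mature oligodendrocyte, -0.73 for oligodendrocyte progenitor, -0.71 for the 2 tested pituitary and -0.52 for neural progenitor genes. It was -0.34 for immature neuron, -0.32 for endothelial, -0.30 for microglial, -0.10 for astrocyte and 0.06 for ependymal genes. The part of these cell types in the levels of the cell cycle genes was not tested.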

How the data were processed

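Hypothalamic RNA of 20 goats, 5 per stage, was sequenced as strand-specific libraries depleted of rRNA. After trimming in fastp, reads were aligned by the authors to the goat genome ARS1.2 in HISAT2 2.0.5, and StringTie 1.3.3b assembled the transcripts (versions per the submitters' processing notes). The deposited values are FPKM per gene, normalised by the authors for length and library size, and read counts were not used here. Columns were matched to goats by their sample names, and 0 columns were left over. The study tested read counts of lncRNAs, which FPKM does not allow.

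Genes that reached 0.1 FPKM in 5 or more libraries were tested, 16771 of 21071. The fit in limma 3.58.1 (R 4.3.3) used log2(FPKM + 0.1), a group for each stage and a variance trend, and gave 6 comparisons. Benjamini-Hochberg adjustment of p covered every gene tested in a comparison. A call needed an adjusted p under 0.05 and a log2 fold change of at least 1 in size. UBE2C in M6 vs. M2 was tested by exact permutation. The fit was tested on simulated data. Python 3.11.15 with pandas 2.3.3, numpy 2.4.6, scipy 1.17.1 and matplotlib 3.10.9 did the rest.

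The 40 genes and all lists were chosen with earlier results of these data known. Values in every library were given for UBE2C, the gene of each role with the highest mean FPKM, every gene called, and the 3 highest and 3 lowest in M6 vs. M2. Of the other lists, the extremes in each comparison with D1 were named, as were the 10 genes nearest to the mean of the 40. Genes outside this rule are given by ranges, means and counts. Coordinates come from RefSeq for ARS1.2. Promoter and protein sequences were not analysed here. Alternatives were other pseudocounts, filters, scalings, variance models and weights, a replicate block, the mapping rate as a covariate, and leaving out each library.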

Additional observations from a re-analysis of the deposited data

Results flagged for a closer look

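In 18 of 160 groups of 5 goats (40 genes at 4 stages), the highest or lowest goat stood apart from the other 4 by Dixon's criterion, 14 on the high side and 4 on the low side. Chance flags about 1 in 20 such groups, and goats of a stage vary together in many of these genes.

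M6-3 held 4 of these values, all high. They were CENPF at 1.93 FPKM (next goat 0.181), CDC20 at 2.07 (0.333), TTK at 1.51 (0.293) and MELK at 0.308 (0.0835). In the same stage NDC80 was at 0.590 FPKM in M6-2, with the next goat at 0.0307.

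At M2, MKI67 was at 2.78 FPKM in M2-3 (next goat 0.0905), and MELK was at 1.78 in the same goat (0.104). In M2-1, CCNB2 was at 0.222 FPKM (0.0277) and CCNA2 at 11.2 (5.58). BUB1 was at 2.48 FPKM in M2-2 (0.422).

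At M4, UBE2C was at 0.119 FPKM in M4-1 and CCNB2 at 0.0729 in M4-2, with the other goats listed at 0. Any value above 0 meets the criterion in such a group, and without these 2 groups 16 values stood apart. CCNB1 was at 3.90 FPKM in M4-1 (1.27) and CENPF at 0.430 in M4-5 (0.135). On the low side, AURKA was at 0.0236 FPKM in M4-3 (next goat 0.207) and PRC1 at 0.255 in M4-5 (0.835).

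At D1, CENPF at 0.157 FPKM (next goat 0.943) and CDC20 at 0.140 (0.685) were low in D1-5. The part of library quality, dissection or single cells in these values was not tested.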

How the results depend on the processing

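Of 405 alternative values of 13 results, 370 kept their direction and side of the threshold or moved by less than the spread among goats, and 35 did not. In M4 vs. D1 the 1 call, UBE2C, became 0 with a pseudocount of 1 or 0.01, without a filter, with only the 10 libraries compared, under quantile normalization or median-ratio scaling, without the variance trend, with the mapping rate as a covariate and with the replicate block, alone or with the mapping rate. With a mean FPKM of at least 1 it was 0 because UBE2C and 20 others of the 40 were not tested. Leaving out single libraries gave between 0 and 3 calls, 3 (KIF11, TOP2A and UBE2C) without D1-5, where 0.0658% of all genes were called. In M6 vs. D1 it gave between 0 and 2, and 2 only without D1-5, where 0.0479% of all genes were called. D1-5 was the lowest D1 library for 23 of the 40 genes, so leaving it out by itself raises their D1 means. Library quality weights gave 1 call in M2 vs. D1 (CCNB2) and 2 in M6 vs. D1 (KIF20A and UBE2C), where 0.882% and 0.566% of all genes were called. CCNB2 passed the filter only with the D1 libraries, and UBE2C was chosen on them. The calls of these genes cannot be read against the shares. The medians of the 40 genes stayed below 0 in every alternative of the comparisons with D1. With a pseudocount of 1 they were -0.33 in M2 vs. D1, -0.31 in M4 vs. D1 and -0.25 in M6 vs. D1, with one of 0.01 -1.30 in M4 vs. D1, and with a mean FPKM of at least 1 -0.26 in M6 vs. D1. The median in M4 vs. M2 ranged from -0.25 to 0.05 and that in M6 vs. M2 from -0.20 to 0.22. UBE2C in M6 vs. M2 stayed below 0, from -1.80 to -0.08, with exact permutation p from 0.143 to 0.810.

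The replicate numbers did not pair the goats. The correlation of 30 same-numbered pairs had a median of -0.01 and ranged from -0.25 to 0.43, and 7 were over 0.1. In 4 of the 30 pairs the goat of the same number was the most alike. With the replicate block 0 of the 40 genes were called in all 6 comparisons, and UBE2C in M6 vs. M2 had an exact p of 0.5.

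Read counts per gene were not used here, so the counting error of low genes such as AURKB and CCNB2 could not be estimated. Causes of the changes under these settings were not tested.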
